A study of Mus musculus with 10 samples.

Results

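Chemokines and their receptors were read as a family from the left ventricular (LV) transcriptomes of 5 nAAC mice and 5 sham mice, with 1 library per mouse. Members were chosen by gene symbol, as every gene whose name begins with Ccl, Cxcl, Cx3cl, Xcl, Ccr, Cxcr, Cx3cr or Ackr followed by a digit, and 63 of the 55401 genes in the deposited tables met that rule. Of these, 29 had a mean FPKM (fragments per kilobase of transcript, scaled to the depth of the library) of at least 0.5 in either group (the listing level), and 26 reached a mean of 0.5 over all 10 libraries and were tested. All mice were labelled as wild type and were studied at 4 weeks of age. The nAAC mice had their ascending aorta constricted surgically as newborns, the sham mice were operated on without constriction, and the pups of both groups stayed with their mothers. The comparison asks how the family's transcripts differ in an LV that grew under pressure overload. The labels give neither the sex of the mice nor a batch. The Y-linked gene Uty had a mean of 0.686 FPKM in nAAC mice and 2.99 in sham mice. The mix of sexes may therefore differ between the groups, and its part in the results was not separated from that of surgery. Each library is whole LV tissue, so a change in the number of cells of a type and a change in RNA per cell cannot be told apart.

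Chemokines are small secreted or membrane-anchored proteins that bind G protein-coupled receptors and set the direction in which leukocytes and other cells move. CC, CXC, XC and CX3C ligands are named for the spacing of their first cysteines. Atypical receptors (Ackr genes) bind chemokines without the usual G protein signal and take them up, which lowers or reshapes the amount of ligand outside the cell. In the heart, CCR2 ligands are known for the recruitment of monocytes after injury, CXCL12 for its receptors CXCR4 and ACKR3 on vascular and stromal cells, and CCL21 for guiding CCR7-bearing cells into lymphatic vessels.

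The aligned sequence was estimated from the ratio of coverage to FPKM at 4.86 to 6.82 gigabases in nAAC libraries and 5.06 to 5.245 in sham libraries, fragment counts are not known, and errors therefore come from the spread between mice. Principal components were drawn from the 13476 tested genes, and sham replicate 4 stood apart on the second (19.6% of the variance) at 46.2, where the other 9 libraries lay between -21.8 and 15.4. Mitochondrial genes took 32.8% to 39.9% of TPM in nAAC mice and 33.7% to 49.8% in sham mice. Cardiomyocyte transcripts were abundant in both groups, with Myh6 at 1790 ± 352 FPKM in nAAC mice and 2149 ± 370 in sham mice (SD, n = 5 each) and Myl2 at 3654 and 3668.

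More family members were up-regulated in nAAC mice than down-regulated. Limma with its mean-variance trend compared genes on log2(FPKM + 1), with Benjamini-Hochberg adjustment across the 13476 genes. At an adjusted p below 0.05, 12 of the 26 tested members (46.2%) were higher in nAAC mice, against 26.5% of all genes tested. Lower values passed in 2 members (7.69%), against 4.65% of all genes, and 12 members did not pass. With a log2 fold change (FC) above 1 required as well, 5 members (19.2%) were higher, against 4.54% of all genes, and 0 were lower in limma, against 0.846%, and this count was also 0 at an unadjusted p below 0.05. The pseudocount of 1 understates the change of low genes, and the 0 depends on the settings. Cxcl14 passed with a log2 FC of -1.88 at a pseudocount of 0.1 (limma adjusted p = 0.00339), -1.01 with TPM, -1.06 with Xist as a covariate and -1.21 with trends in GC content and transcript length removed. In 9 members all nAAC mice lay above all sham mice, which held for 18.5% of all genes, and in 1 member all nAAC mice lay below, which held for 3.49%. The log2 FC was positive in 21 of the 26, with a median of 0.36 where the median of all genes was 0.21.

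That general shift depended on the scale between libraries. Scaling each library by the median ratio of its genes sets the general shift near 0 by design, so it cannot show which scale is right. The median log2 FC of all genes moved from 0.21 to 0.0048. The share of all calls that were higher fell from 85.1% to 53.3%. Under this scaling, 11 of the 26 members (42.3%) were higher, against 13.2% of all genes, and 2 (7.69%) were lower, against 11.6%. The members' median was then 0.25, and 20 of 26 were positive. Without sham replicate 4, 11 members were higher and 2 lower on the deposited scale, and 4 were higher with a log2 FC above 1.

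**Figure D1:**
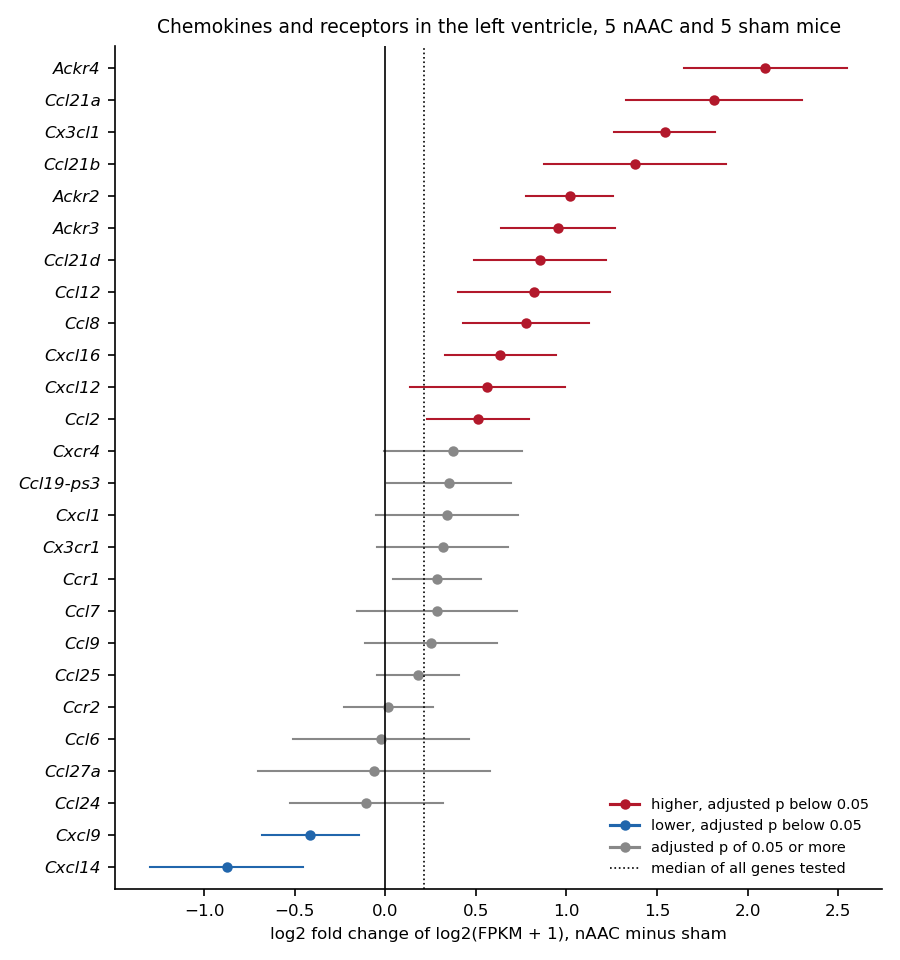
Log2 FC of log2(FPKM + 1), nAAC minus sham, for the 26 tested genes, with 95% confidence intervals from limma as lines and the median of all genes tested as a dotted line. Red genes are higher and blue genes lower at an adjusted p below 0.05. Ackr4, at 2.10, stands at the top and Cxcl14, at -0.88, at the bottom.

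The sum of FPKM over the chemokine ligand genes that met the symbol rule was 110.6 ± 15.2 in nAAC mice and 57.3 ± 7.16 in sham mice (SD, n = 5 each). Its 2 main parts were the Ccl21 genes and Cxcl12, which on this per-length scale held 70.8% of ligand FPKM in nAAC mice and 60.2% in sham mice. For CC ligands the sum was 64.4 against 27.8, with no overlap between groups, and for CXC ligands it was 41.5 against 28.5, with overlap. On the receptor side the 3 listed Ackr genes made up most of the sum, at 83.6% ± 2.50 of the family's receptor FPKM in nAAC mice and 76.4% ± 4.37 in sham mice. Beside them the receptors that signal through G proteins were scarce, with sums of 4.76 against 3.07 FPKM for CXC receptors, 2.62 against 1.78 for CC receptors and 1.80 against 1.21 for Cx3cr1. The CC receptor sum was higher in all nAAC mice than in any sham mouse, by a narrow margin (lowest 2.27, highest 2.23), and the CXC receptor sum and Cx3cr1 overlapped.

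Ccl21 genes, whose product is the ligand of CCR7 and is made mainly by lymphatic endothelium and lymphoid stroma, had the highest ligand level in nAAC mice. The mouse genome carries several near-identical copies on chromosome 4. In the files, whose coordinates follow build mm10, Ccl21a (ENSMUSG00000094686) lies at chr4:42772860-42773993 on the minus strand, Ccl21b (ENSMUSG00000095675) at chr4:42255693-42256825 on the plus strand and Ccl21d (ENSMUSG00000094065) at chr4:41903610-41904743 on the plus strand. Their coding sequences are printed because reads within them limit how far the copies can be measured apart. Each holds 399 bases without the stop codon in GENCODE release M21, and bases 1 to 240 are given, 5′ to 3′, with capitals on the bases that differ.
Ccl21a: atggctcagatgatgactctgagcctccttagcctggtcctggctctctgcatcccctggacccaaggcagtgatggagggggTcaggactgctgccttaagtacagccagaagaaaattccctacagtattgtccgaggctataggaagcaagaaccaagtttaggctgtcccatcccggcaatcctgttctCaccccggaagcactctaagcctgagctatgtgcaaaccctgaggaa
Ccl21b: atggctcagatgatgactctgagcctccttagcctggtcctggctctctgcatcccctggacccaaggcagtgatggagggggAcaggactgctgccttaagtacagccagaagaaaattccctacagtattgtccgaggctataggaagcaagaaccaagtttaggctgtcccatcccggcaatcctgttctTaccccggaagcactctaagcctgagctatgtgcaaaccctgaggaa
Counted from 1 at the start codon, the whole coding sequence of Ccl21a differs from that of Ccl21b by T84A and C194T, an identity of 99.5%, and the coding sequence of Ccl21d is the same as that of Ccl21b. A read within the coding sequence that covers neither base fits all 3 genes, so the split of such reads is uncertain. Outside it the annotated transcripts differ more, with 870 bases for Ccl21a and Ccl21d and 402 for Ccl21b. Of the 50-base stretches of the Ccl21a transcript, 30.8% also occur in Ccl21b and 71.6% in Ccl21d.

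Ccl21a rose in nAAC mice. Its FPKM was 34.5, 31.9, 51.3, 41.7 and 29.6 in nAAC mice and 11.6, 5.66, 10.8, 15.5 and 8.15 in sham mice. All nAAC mice lay above all sham mice, and the lowest nAAC value was well clear of the highest sham value. The means were 37.8 ± 8.80 and 10.3 ± 3.72 (SD, n = 5 each), a log2 FC of 1.81 (SE 0.23, limma adjusted p = 6.18e-05).

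The other copies moved the same way at lower levels. Ccl21b had 5.29, 2.62, 7.60, 4.82 and 2.91 FPKM in nAAC mice and 1.44, 0.967, 0.884, 1.78 and 0.494 in sham mice. Ccl21d had 1.64, 0.881, 3.08, 1.24 and 1.36 in nAAC mice and 0.472, 0.366, 0.302, 0.431 and 0.488 in sham mice. Neither gene overlapped between groups, and nAAC replicate 3 had the highest value of all 3 copies. The fit gave a log2 FC of 1.38 for Ccl21b (SE 0.23, limma adjusted p = 7.10e-04) and 0.85 for Ccl21d (SE 0.17, limma adjusted p = 0.00213). Ccl21a made up 86.2% ± 3.10 of the 3 copies in nAAC mice and 86.7% ± 3.64 in sham mice, so the split given by the authors' processing was much alike in both groups.

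Gm13304 and Gm10591, which carry no chemokine symbol, share transcript sequence with Ccl21b, and every 50-base stretch of the Ccl21b transcript also occurs in each of them. They are named because the Ccl21 values turn on them. Gm13304 had 15.8 ± 5.31 FPKM in nAAC mice and 4.33 ± 1.34 in sham mice, and Gm10591 had 15.9 ± 5.78 and 3.98 ± 1.47 (SD, n = 5 each). The sum of the 3 named copies was 44.1 against 11.9 FPKM, and the sum of all 5 genes was 75.8 against 20.2, a ratio of means of 3.71 and 3.76. In both sums, taken over the division of reads that the authors' processing gave, the level was higher in every nAAC mouse than in any sham mouse.

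**Figure D2:**
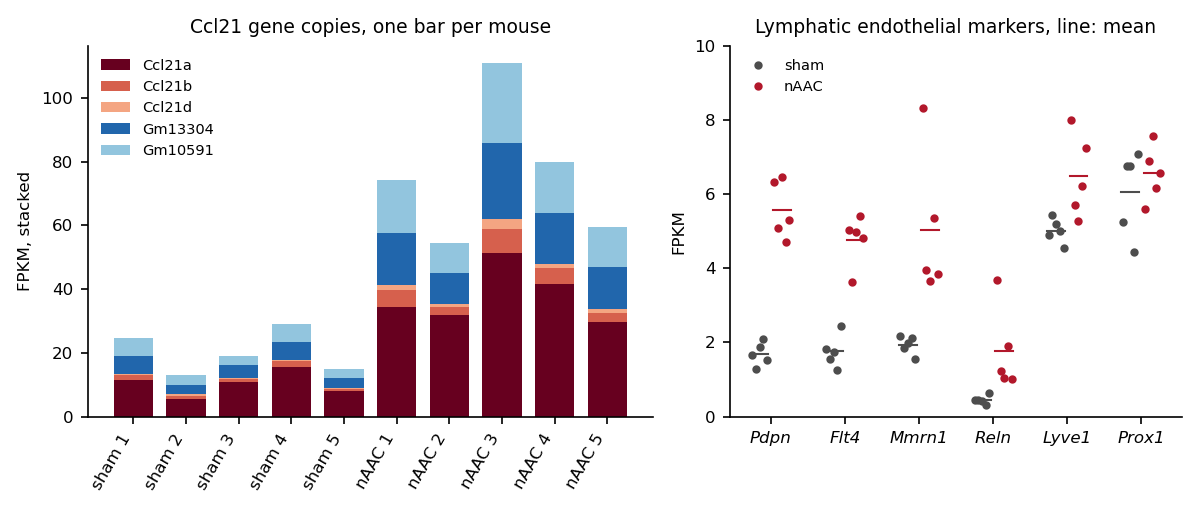
Left, FPKM of Ccl21a, Ccl21b, Ccl21d, Gm13304 and Gm10591 stacked for each mouse. The nAAC bars run from 54.6 to 110.9 and the sham bars from 13.0 to 29.2. Right, FPKM of 6 lymphatic endothelial markers in each mouse, with group means as lines. Pdpn, Flt4, Mmrn1 and Reln do not overlap between groups, and Lyve1 and Prox1 do.

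Lymphatic endothelial markers moved with Ccl21. Of 6 markers tested, 4 were higher (66.7%, against 26.5% of all genes) and 0 lower. Their median log2 FC was 0.92 where that of all genes was 0.21. Their summed FPKM spanned 26.5 to 37.0 in nAAC mice and 15.2 to 18.0 in sham mice. The podoplanin gene Pdpn (5.58 against 1.69 FPKM, log2 FC 1.29), the VEGF receptor 3 gene Flt4 (4.77 against 1.77, log2 FC 1.07) and Mmrn1 (5.02 against 1.93, log2 FC 0.99) passed. Prox1, which sets lymphatic identity, had 6.55 against 6.06 FPKM (log2 FC 0.11, limma adjusted p = 0.558) and the hyaluronan receptor gene Lyve1 had 6.49 against 5.01 (log2 FC 0.31, limma adjusted p = 0.0669). Within each mouse, the ratio of Ccl21a to Pdpn was 6.82 ± 1.51 in nAAC mice and 5.98 ± 1.25 in sham mice, which overlapped, and the ratio of Ccl21a to Lyve1 was 6.09 ± 2.30 and 2.08 ± 0.755, which did not. The part of lymphatic vessels in the Ccl21 result was not tested.

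CCR7, the receptor of CCL21, was not among the named genes, since Ccr7 did not reach a mean of 0.5 FPKM in either group. Ccl19-ps3 is a copy of the gene of the other CCR7 ligand, annotated in GENCODE M21 as an unprocessed pseudogene and counted among the CC ligands by its symbol. It had 0.800 ± 0.259 FPKM in nAAC mice and 0.429 ± 0.304 in sham mice, with 0 in sham replicate 3. The groups overlapped, and the log2 FC of 0.35 did not pass (limma adjusted p = 0.108). All of its 50-base stretches are shared with Ccl19 and Gm2564, so its reads cannot be assigned with certainty.

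Ligand genes named as monocyte chemoattractant proteins (MCP) lie close together on chromosome 11, and 3 of them rose. Ccl2 (MCP-1) had 1.11, 1.76, 1.45, 1.96 and 1.52 FPKM in nAAC mice and 0.362, 1.04, 0.833, 0.857 and 0.927 in sham mice. Every nAAC mouse was above every sham mouse, though nAAC replicate 1 was only just so, and sham replicate 1 was far below the rest. Its log2 FC was 0.51 (SE 0.13, limma adjusted p = 0.0101). With Xist as a covariate the log2 FC was also 0.51, but the call was lost (SE 0.16, limma adjusted p = 0.0537).

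Ccl8 (MCP-2) had 0.897, 0.968, 1.65, 1.26 and 1.15 FPKM in nAAC mice and 0.0984, 0, 0.885, 0.170 and 0.350 in sham mice. The lowest nAAC mouse barely exceeded sham replicate 3, and the other sham mice were well below, with sham replicate 2 listed at 0. The fit gave Ccl8 a log2 FC of 0.78 (SE 0.16, limma adjusted p = 0.00293). Ccl12 (MCP-5) had 2.43, 2.42, 2.87, 2.81 and 1.76 FPKM in nAAC mice and 0.564, 1.91, 0.605, 1.61 and 0.460 in sham mice. Sham replicate 2 lay above nAAC replicate 5, so the groups overlapped, and the log2 FC was 0.82 (SE 0.19, limma adjusted p = 0.0065). Ccl7 (MCP-3), the fourth gene of this kind, had 1.30 ± 0.693 against 0.863 ± 0.429 FPKM and did not pass (log2 FC 0.29, limma adjusted p = 0.301).

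Ccr2, the receptor that CCL2 and CCL7 use on monocytes, did not move with them. Its FPKM was 0.582 ± 0.185 in nAAC mice and 0.565 ± 0.190 in sham mice (SD, n = 5 each), for a log2 FC of 0.017 with a 95% interval from -0.23 to 0.26 (limma adjusted p = 0.921). The sign turned under other scalings, with -0.09 after median-ratio scaling. The ratio of Ccl2 to Ccr2 within each mouse was 2.83 ± 0.886 in nAAC mice and 1.44 ± 0.369 in sham mice, and the ranges overlapped.

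On the deposited scale, macrophage and monocyte markers were higher about as often as genes in general, and after median-ratio scaling more often. Of 18 tested, 5 were higher on the deposited scale (27.8%, against 26.5% of all genes) and 0 lower (median log2 FC 0.36). After median-ratio scaling 5 were higher (27.8%, against 13.2% of all genes) and 1 lower (median log2 FC 0.12). The genes of complement C1q, C1qa (1.20), C1qc (0.88) and C1qb (0.83), had the largest log2 FC among those that passed on the deposited scale. The summed FPKM spanned 208.7 to 397.8 in nAAC mice and 149.2 to 291.4 in sham mice, with overlap. Csf1r (log2 FC 0.11), Cd68 (0.50), Adgre1 (0.51) and the pan-leukocyte gene Ptprc (0.28) did not pass. Of 7 pan leukocyte markers 5 were higher, or 2 after median-ratio scaling, and their sums also overlapped. For T and NK cells, B cells, dendritic cells, mast cells and neutrophils, 0 of 14 tested markers passed in limma in either direction (2 at an unadjusted p below 0.05). The level for testing was reached by 1 of 12 T and NK, 2 of 6 B, 4 of 8 dendritic, 5 of 7 mast and 2 of 10 neutrophil markers. Among untested neutrophil genes, Ly6g was listed at 0 in all libraries, and Csf3r spanned 0.264 to 0.733 FPKM in nAAC mice and 0.105 to 0.243 in sham mice. The neutrophil sums overlapped. Ratios of Ccl12, Ccl8 and Cxcl16 to Csf1r overlapped between groups, with means of 0.295 against 0.125 for Ccl12. The part of macrophage number in the ligand results was not tested.

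Ccl6 and Ccl9 are ligands of CCR1 made by macrophages, and neither passed. Ccl6 had 4.39 ± 1.54 FPKM in nAAC mice and 4.51 ± 1.64 in sham mice (log2 FC -0.02, limma adjusted p = 0.948), and Ccl9 had 2.55 ± 1.02 and 1.89 ± 0.198 (log2 FC 0.25, limma adjusted p = 0.275). Their receptor gene Ccr1 had 1.17, 0.706, 0.690, 0.836 and 0.972 FPKM in nAAC mice and 0.331, 0.615, 0.637, 0.368 and 0.745 in sham mice. Only sham replicate 5 reached into the nAAC range, and the log2 FC of 0.29 did not pass (SE 0.11, limma adjusted p = 0.0681).

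The remaining CC ligands showed no difference that passed. They were Ccl24 (eotaxin-2), at 0.487 against 0.666 FPKM, Ccl25, a CCR9 ligand, at 0.999 against 0.770, and Ccl27a, a CCR10 ligand, at 2.84 against 3.22. Their log2 FC lay between -0.11 and 0.18. The 95% intervals reached from -0.53 to 0.32 for Ccl24 and from -0.70 to 0.58 for Ccl27a. With this spread, the data do not exclude changes within these bounds. Ccl5, an attractant of T cells and monocytes, passed the listing level in nAAC mice only, at 0.502 FPKM against 0.425, and was below the level for testing.

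**Figure D3:**
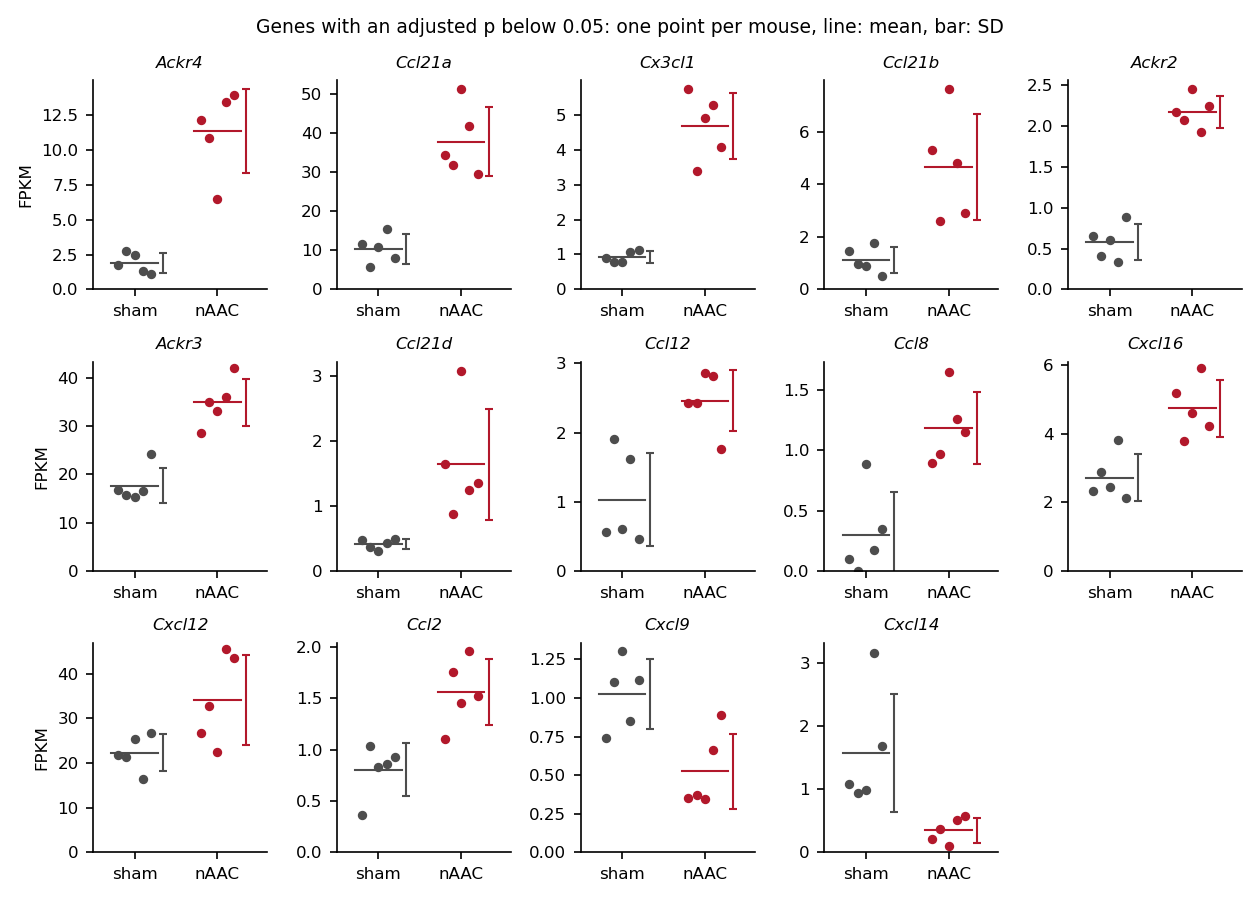
FPKM of each mouse for the 14 genes with an adjusted p below 0.05, in order of log2 FC, with group means as lines and SD as bars on a linear axis from 0. The groups are apart for the 6 genes with the highest log2 FC, and they overlap for Ccl12, Cxcl16, Cxcl12 and Cxcl9.

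Cx3cl1, the membrane-bound chemokine fractalkine, had the smallest p of the family. Its FPKM was 5.75, 3.38, 4.92, 5.27 and 4.07 in nAAC mice and 0.906, 0.780, 0.777, 1.07 and 1.13 in sham mice. No sham mouse came near the nAAC range, and the sham mice were close together. Its log2 FC was 1.54 (SE 0.13, limma adjusted p = 2.44e-06), and the ratio of means was 5.02. Its receptor gene Cx3cr1, carried by monocytes and resident macrophages, had 1.80 ± 0.738 FPKM against 1.21 ± 0.299 and did not pass (log2 FC 0.32, limma adjusted p = 0.167). The ratio of Cx3cl1 to Cx3cr1 within each mouse was 2.88 ± 1.07 in nAAC mice and 0.832 ± 0.336 in sham mice, with no overlap. In the annotation Cx3cr1 spans other genes, among them Xirp1 (39.8 against 18.8 FPKM) on the same strand, so its reads are uncertain. Of 12 endothelial markers, 3 were higher (25.0%, close to the 26.5% of all genes) and 0 lower, and their sums overlapped, at 536.8 to 970.7 FPKM in nAAC mice and 584.1 to 916.5 in sham mice.

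Cxcl16, the other chemokine that is made as a membrane protein, also rose. Its FPKM was 5.20, 3.79, 4.61, 5.92 and 4.24 in nAAC mice and 2.32, 2.89, 2.44, 3.83 and 2.13 in sham mice. Sham replicate 4 lay just above nAAC replicate 2, and the other sham mice lay below all nAAC mice. Its log2 FC of 0.63 passed (SE 0.14, limma adjusted p = 0.00468), and with Xist as a covariate the log2 FC was 0.54 and did not pass (limma adjusted p = 0.0513). Its receptor gene Cxcr6, found on T cells and innate lymphoid cells, was listed through its nAAC mean alone and was below the level for testing, with 1.03, 0.469, 0.273, 0.430 and 0.319 FPKM in nAAC mice and 0.138, 0.102, 0.159, 0.152 and 0.0809 in sham mice. All nAAC mice lay above all sham mice. Since Cxcr6 was named through the group in which it is high, these values are a description and no test of it is given. Cxcr6 overlaps Fyco1 on the opposite strand (31.7 against 43.1 FPKM), and Cxcl16 overlaps Zmynd15 over 552 bases (0.968 against 0.467 FPKM). The sources used here do not state that counting used strand, and reads of such pairs then cannot be told apart.

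Cxcl12, the ligand of CXCR4 and ACKR3, was the most abundant single ligand in sham mice. It had 26.7, 32.9, 22.6, 45.4 and 43.4 FPKM in nAAC mice and 21.8, 21.4, 25.4, 16.4 and 26.8 in sham mice. nAAC replicates 4 and 5 were high, and nAAC replicates 1 and 3 lay within the sham range. The log2 FC of 0.56 was the least certain of the calls (SE 0.20, limma adjusted p = 0.0463). It did not pass with the other scaling (log2 FC 0.29, limma adjusted p = 0.275), and it was lost in 13 of 19 alternatives, 7 of which leave out 1 mouse, namely nAAC replicate 2, 4 or 5 or sham replicate 1, 2, 3 or 4 (adjusted p from 0.0568 to 0.122). Cxcr4, its signalling receptor, had 3.96 ± 1.21 FPKM against 2.78 ± 0.622 and did not pass (log2 FC 0.38, limma adjusted p = 0.121). The ratio of Cxcl12 to Cxcr4 was 8.85 ± 2.12 in nAAC mice and 8.41 ± 2.51 in sham mice.

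Both genes that fell were CXC ligands at low levels. Cxcl14, a chemokine of epithelia and stroma, had 0.210, 0.365, 0.0970, 0.507 and 0.575 FPKM in nAAC mice and 1.09, 0.944, 0.986, 3.16 and 1.68 in sham mice. All nAAC mice lay below all sham mice, and sham replicate 4 was the highest. The log2 FC was -0.88 (SE 0.20, limma adjusted p = 0.0045), and it was -0.69 without sham replicate 4, still past the threshold. Cxcl9, an interferon gamma-induced ligand of CXCR3, had 0.355, 0.374, 0.346, 0.661 and 0.887 FPKM in nAAC mice and 0.740, 1.10, 1.30, 0.850 and 1.12 in sham mice. nAAC replicate 5 exceeded sham replicates 1 and 4, and the log2 FC was -0.41 (SE 0.12, limma adjusted p = 0.0223). The Cxcl9 call was lost on leaving out nAAC replicate 1, 2 or 3 or sham replicate 3, with adjusted p from 0.0509 to 0.0592. Cxcl1, a neutrophil attractant, had 0.798 ± 0.334 against 0.446 ± 0.441 FPKM and did not pass (log2 FC 0.34, limma adjusted p = 0.168). Without sham replicate 3, whose value of 1.22 was far above the other sham mice, the log2 FC of Cxcl1 was 0.51 (limma adjusted p = 0.0194).

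All 3 atypical receptors with an Ackr symbol that could be tested rose, where 26.5% of all genes were higher. Ccrl2, an atypical receptor outside the symbol rule, fell (log2 FC -0.67, limma adjusted p = 0.00283). Of the 4 tested receptors that signal through G proteins, 0 passed in limma (1 at an unadjusted p below 0.05), though with TPM in place of FPKM both Ccr1 (adjusted p = 0.0258) and Cxcr4 (adjusted p = 0.0445) passed, and Ccr1 also passed without sham replicate 5 (adjusted p = 0.0423). The difference between the classes itself was not tested. Ackr4, which takes up CCL19, CCL21 and CCL25, had the largest log2 FC of the family. It had 12.1, 10.8, 6.45, 13.4 and 13.9 FPKM in nAAC mice and 1.77, 2.72, 2.46, 1.33 and 1.08 in sham mice. nAAC replicate 3 was the lowest of its group and still lay above all sham mice. The log2 FC was 2.10 (SE 0.21, limma adjusted p = 1.01e-05), and the exact permutation test gave p = 0.00794, the smallest it can give with 5 against 5 mice.

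Ackr4 lies at chr9:104084157-104126933 on the minus strand of mm10 and overlaps Acad11, an acyl-CoA dehydrogenase gene, on the opposite strand over 42777 bases. Acad11 had 23.6 ± 2.24 FPKM in nAAC mice and 25.9 ± 4.06 in sham mice, and the ratio of Ackr4 to Acad11 was 0.485 ± 0.132 and 0.0765 ± 0.0371, with no overlap. The higher Ackr4 values were not matched by higher Acad11 values. Since it is not stated that counting used strand, these levels cannot show how reads of the pair were divided. The part of Acad11 reads in the Ackr4 values was not tested.

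Ackr3, which takes up CXCL12 and CXCL11, was the most abundant receptor gene of the family. It had 28.6, 34.9, 33.0, 35.9 and 41.9 FPKM in nAAC mice and 16.7, 15.8, 15.2, 16.5 and 24.1 in sham mice. Every nAAC mouse was above every sham mouse, and sham replicate 5 was well above the other sham mice. Ackr3 had a log2 FC of 0.95 (SE 0.15, limma adjusted p = 3.47e-04), 0.68 after median-ratio scaling and 1.06 without sham replicate 5. The ratio of Ackr3 to Cxcl12 (1.07 ± 0.247 against 0.802 ± 0.155) and that of Ackr3 to Cxcr4 (9.39 ± 2.74 against 6.61 ± 1.84) overlapped between groups.

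Ackr2, which takes up inflammatory CC chemokines such as CCL2, had 2.17, 2.08, 2.45, 1.92 and 2.24 FPKM in nAAC mice and 0.658, 0.405, 0.605, 0.329 and 0.887 in sham mice. The groups were far apart, and the nAAC mice were close to each other. Its log2 FC was 1.02 (SE 0.11, limma adjusted p = 2.26e-05). Ackr1, the fourth gene of the class, did not reach the listing level.

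Promoters of the higher members were read for short motifs, since the tested Ackr genes moved together and the study concerns the aryl hydrocarbon receptor. This receptor binds the core of the dioxin-responsive element (DRE). RefSeq promoters of GRCm38.p6, which run from upstream of a start site to shortly after it, were matched for 22 of the 29 genes at the listing level. Ackr3 and Ackr4 are shown as an atypical receptor gene with the core and another without it. The Ackr3 promoter lies at chr1:90203730-90204029 on the plus strand and the Ackr4 promoter at chr9:104126594-104126893 on the minus strand, both printed 5′ to 3′, with capitals marking the DRE core GCGTG.
Ackr3: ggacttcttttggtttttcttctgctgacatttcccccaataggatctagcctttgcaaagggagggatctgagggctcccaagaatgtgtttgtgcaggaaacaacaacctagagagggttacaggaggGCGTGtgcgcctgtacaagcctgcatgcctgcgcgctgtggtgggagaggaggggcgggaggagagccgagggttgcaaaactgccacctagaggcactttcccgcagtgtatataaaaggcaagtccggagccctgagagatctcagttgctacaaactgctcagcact
Ackr4: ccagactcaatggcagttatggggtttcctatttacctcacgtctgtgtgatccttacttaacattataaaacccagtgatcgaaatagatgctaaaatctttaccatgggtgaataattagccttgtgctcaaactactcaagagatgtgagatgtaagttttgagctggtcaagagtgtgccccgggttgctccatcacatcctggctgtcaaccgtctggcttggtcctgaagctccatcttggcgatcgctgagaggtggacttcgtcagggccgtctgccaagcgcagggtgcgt
Searched on both strands, GCGTG occurred in 32.4% of all 32851 promoters in the table and in 2 of the 10 promoters of higher members, those of Ackr3, where it lies 120 bases before the start, and Ccl21b, whose RefSeq start is far from the start in the files. The AP-1 letters TGANTCA occurred in 7.81% of all promoters and in 0 of the 10, and an NF-kB motif of GGG and CC with 5 bases of any kind between them in 50.8% and in 3 of the 10, namely Ackr2, Ackr4 and Cxcl12. These matches describe letters in a window and not binding. The promoters of Ccl21a and Ccl21d agree at 297 of 299 bases.

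The rest of the family was near the floor of the measurement. The 34 genes under the listing level were 12 CC and 8 CXC ligands, 1 XC ligand, 8 CC and 4 CXC receptors and 1 atypical receptor. Ccl20, Ccl26, Cxcl15 and Ccr8 were listed at 0 in every library, 27 of the 34 had a median under 0.1 FPKM, and the highest single value was 0.842 FPKM. The group means nearest to the threshold were 0.430 for Cxcl10, just outside it, and 0.502 for Ccl5 and 0.504 for Cxcr6, just inside. Of the 34 genes, 1 had every nAAC mouse below every sham mouse, which held for 3.49% of all genes tested. It was Ccl11 (eotaxin-1), named here because of its values. With no filter its log2 FC was -0.24 and did not pass (limma adjusted p = 0.0914).

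Genes that act with the family were read from lists. Of 15 further chemokine-related genes outside the symbol rule, 11 were tested, 4 were higher (36.4%, against 26.5% of all genes) and 2 lower, or 2 higher and 2 lower after median-ratio scaling. Mif, a cytokine that binds CXCR2 and CXCR4, had 154.6 against 66.9 FPKM (log2 FC 1.32, SE 0.28), and the chemerin receptor gene Cmklr1 had 7.83 against 2.97 (log2 FC 1.16, SE 0.18). Ccrl2, an atypical receptor that holds chemerin, fell, with 3.62 against 6.39 FPKM (log2 FC -0.67, SE 0.14). Limma gave these adjusted p values of 0.00326, 4.29e-04 and 0.00283.

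Of 33 tested genes of chemokine receptor signal transduction, 14 were higher (42.4%, against 26.5% of all genes) and 1 lower, with a median log2 FC of 0.30. After median-ratio scaling 5 were higher (15.2%, against 13.2% of all genes) and 3 lower, with a median log2 FC of 0.092. On the deposited scale the gene that fell was Rgs2, which shortens G protein signals, at 3.82 against 14.3 FPKM (log2 FC -1.58, SE 0.22). The receptor kinase gene Grk5 (log2 FC 0.86, SE 0.12) and the arrestin gene Arrb1 (log2 FC 0.79, SE 0.13), which end G protein signals and start uptake, rose. Limma gave Rgs2, Grk5 and Arrb1 adjusted p values of 1.60e-04, 1.23e-04 and 6.06e-04.

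Of 14 tested genes that shed, trim or hold chemokines outside the cell, 8 were higher (57.1%, against 26.5% of all genes) and 1 lower (median log2 FC 0.43). After median-ratio scaling 5 were higher (35.7%, against 13.2% of all genes) and 2 lower. The largest changes were in the matrix protease gene Mmp2 (56.1 against 23.6 FPKM, log2 FC 1.21), the perlecan gene Hspg2 (40.2 against 19.3, log2 FC 1.08) and the syndecan gene Sdc3 (16.0 against 8.23, log2 FC 0.89). A list of NF-kB and inflammatory cytokine genes was also read, but its cytokine genes Il1a, Il1b, Il6 and Tnf were below the level for testing. After median-ratio scaling, 7 of the 11 genes of this list that were tested were higher (63.6%, against 13.2% of all genes) and 0 lower. On the deposited scale 9 were higher (81.8%, against 26.5% of all genes) and 0 lower (median log2 FC 0.61). They included the TNF receptor genes Tnfrsf1b (log2 FC 0.96) and Tnfrsf1a (log2 FC 0.69) and the adhesion molecule gene Icam1 (log2 FC 0.87). As among the members, changes of this size stand on a general shift of 0.21 over all genes.

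**Figure D4:**
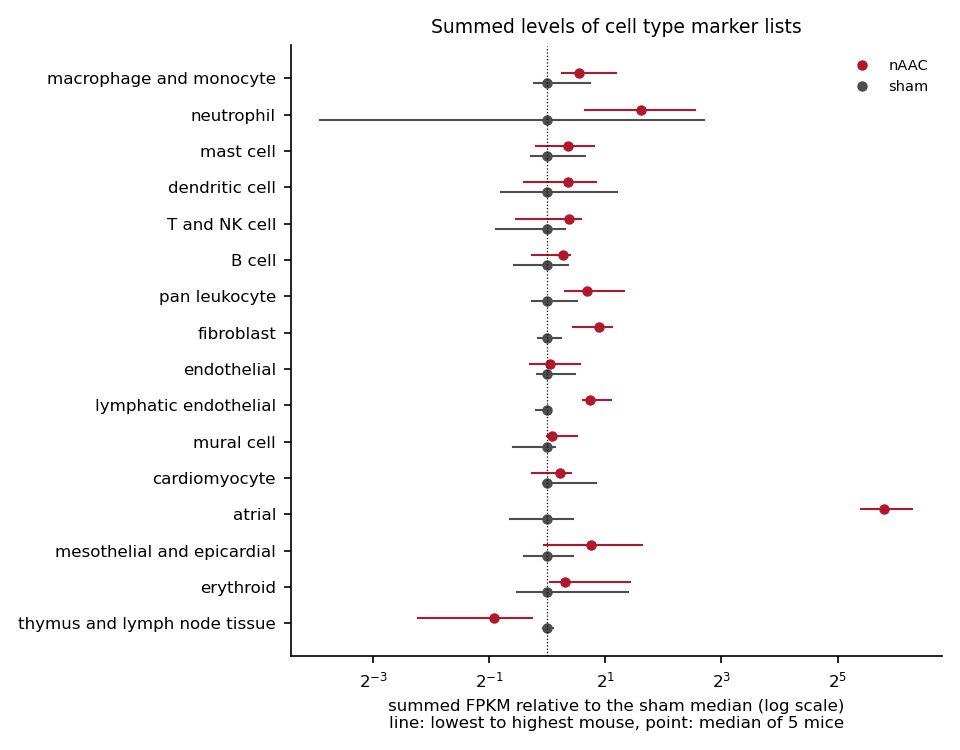
Summed FPKM of 16 cell type marker lists relative to the median of the sham mice, on a log axis, with lines from the lowest to the highest mouse and points at the median of 5 mice. The fibroblast, lymphatic endothelial and atrial sums are higher in every nAAC mouse than in any sham mouse, the thymus and lymph node sum is lower in every nAAC mouse, and the other lists overlap.

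Stromal marker lists were read in the same way, beside the 26.5% of all genes that were higher and the 4.65% that were lower. Of 12 fibroblast markers 8 were higher, led by Postn (log2 FC 3.78), Col1a1 (2.09) and Col1a2 (2.0), and the summed FPKM spanned 1122 to 1778 in nAAC mice and 735.7 to 962.9 in sham mice. Of 10 mural cell markers 7 were higher and 0 lower, with overlapping sums. Of 5 tested atrial markers 2 were higher, Nppa (log2 FC 6.07) and Dkk3 (log2 FC 2.57), and Nppa, which ventricles also make under load, made up most of the sum. Myl7, a defining atrial gene, had 29.5 ± 35.6 FPKM in nAAC mice and 7.68 ± 8.49 in sham mice, with overlap. Of 8 thymus and lymph node markers, Foxn1 and Rag2 were listed at 0 in all libraries, and the 1 that was tested, Cd1d1, was lower (log2 FC -0.54, limma adjusted p = 0.00903). The cardiomyocyte list had 2 higher and 3 lower of 12, the mesothelial list 1 higher of 7 and the erythroid list 0 of 5, and all 8 tested immediate early genes were higher. After median-ratio scaling, where 13.2% of all genes were higher, 6 fibroblast, 5 mural and 4 lymphatic endothelial markers were higher, and 1 endothelial marker was. The part of these cell types in the chemokine results was not tested.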

How the data were processed

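RNA from the LV of each mouse had been sequenced by the authors after library preparation with a NEBNext Ultra kit, and mm10 is named in the submitters' processing notes. The aligner, the quantifier and the use of strand are not given in the sources used here. The authors deposited for each gene a coverage signal (mean read depth per base), an FPKM value (normalized for length and depth) and a TPM value (scaled to a fixed total). Replicates were not pooled.

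Rows sharing a gene ID, 12 to 21 per library, were summed. Of 55141 gene IDs shared with GENCODE M21, 99.4% had the same start and end. FPKM entered limma 3.58.1 (R 4.3.3) as log2(FPKM + 1) for genes with a mean of at least 0.5, with 5 against 5 mice and no covariate. Folds of low genes are understated on this scale. Beside it stands a two-sided exact permutation test of single genes. The fit was tested on simulated data. Figures used Python 3.11.15, pandas 2.3.3 and matplotlib 3.10.9.

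Family members, marker lists and tests were chosen with earlier results of these data known. Every family gene with a mean FPKM of at least 0.5 in a group is named, except 1 that is not reported here, and from other lists at most 3 genes with the largest log2 FC among those past the threshold, plus Ptprc, Csf1r, Cd68 and Adgre1. Other genes are named where a value turns on them. The labels do not say that litters were separate, so p values measure the spread between these mice. The alternatives tried were scaling by median ratio or upper quartile, TPM, a pseudocount of 0.1, a mean FPKM of at least 1, no filter, a replicate block, Xist as a covariate, removal of GC content and length trends, and leaving out each mouse.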

Additional observations from a re-analysis of the deposited data

Results flagged for a closer look

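Values of log2(FPKM + 1) were taken in 58 groups of 5, from the 29 genes at the listing level in nAAC and in sham mice. The gap between the most extreme mouse and its nearest neighbour was divided by the range of the group. In 3 groups this share was above the critical value of 0.71 (Dixon's test), where chance gives about 2.9. Ccl2 was low in sham replicate 1, with a share of 0.739. Cxcl1 was high in sham replicate 3, with a share of 0.727. Ackr3 was high in sham replicate 5, with a share of 0.803. On this log scale all 3 were sham mice, and each was a different mouse. The shares on FPKM itself were not examined and can differ.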

How the results depend on the processing

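The number of higher members stayed between 9 and 15 under all 19 alternatives (12 as reported), and between 11 and 13 when a mouse was left out. The number of lower members, 2 as reported, was 1 with no filter, 1 with Xist as a covariate and 1 to 2 when a mouse was left out. It was 0 with a mean FPKM of at least 1, but there neither Cxcl14 (mean 0.961 over all libraries) nor Cxcl9 (0.774) was tested, so no call was lost. Members higher with a log2 FC above 1, 5 as reported, numbered 9 with TPM, 8 with a pseudocount of 0.1 and 4 to 6 when a mouse was left out. Of 484 single values, 441 kept their direction and side of the threshold, 22 lost the call, 4 gained it and 17 changed sign, and 8 of the 12 higher members were called under every alternative in which they were tested, where Ccl8 was not tested at a mean FPKM of at least 1. Signs changed in 3 genes that did not pass. Ccl27a was 0.071 with TPM and ran from -0.21 to 0.17 when a mouse was left out. Ccl6 was 0.13 with TPM and ran from -0.18 to 0.12. Ccr2 was -0.088 with median-ratio scaling, -0.052 with upper-quartile scaling and -0.056 with trends removed, and ran from -0.048 to 0.072. Besides Cxcl12 and Cxcl9, the calls of Ccl2 (log2 FC 0.51, adjusted p = 0.0537 in limma) and Cxcl16 (log2 FC 0.54, 0.0513) were lost with Xist as a covariate, and that of Ccl21d (0.0599) with trends removed. The cause was not tested. Mice of the same replicate number did not deviate together (correlations from -0.298 to 0.179), and with the replicate number as a block 11 members were higher, 2 lower and 5 higher with a log2 FC above 1, the block moving Cxcl12 to an adjusted p of 0.0622. Fragment counts are not known, so for members near 0.5 FPKM the counting error is unknown.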
